A study of Mus musculus with 4 samples.

Results

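The cytosolic ribosomal protein genes were examined in mouse CD4+ T cells, the class of T lymphocytes that helps other immune cells, after culture with TGFb1 plus progesterone or with TGFb1 alone. A member was any gene whose probe set carried a single symbol starting with Rpl or Rps and a digit, or Rplp0, Rplp1, Rplp2 or Rpsa, without S6 kinase, Rps19bp and pseudogene symbols. This gave 105 of 45037 probe sets, for 49 genes, and each gene was represented by its brightest probe set. They comprise 22 genes of the large subunit, 21 of the small subunit and 6 paralogs (Rpl22l1, Rps27l, Rpl39l, Rpl7l1, Rpl3l and Rps4l). Of the 49 genes, 46 lay above the median level of all probe sets and were among the 10501 genes tested. Rpl3l, Rps4l and Rps16 lay below it.

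Cells taken as naive from spleen and lymph nodes were cultured for 7 days with 10% serum and the T cell activating lectin concanavalin A at 2.5 ug/ml. In 2 samples they received human TGFb1 (1 ng/ml) and progesterone (2000 ng/ml), and in 2 samples the same TGFb1 without progesterone. TGFb1 and concanavalin A were thus common to both groups, and no sample without TGFb1 was analysed here. Separate cultures or animals are not named for the replicates in the labels, and the p-values therefore describe the spread between these arrays, which could be technical.

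The cytosolic ribosome joins a small subunit, which reads the mRNA, to a large subunit, which forms the peptide bond. Each subunit contains ribosomal RNA and mostly single copies of its proteins, and the mRNAs of these proteins are among the most abundant of a cell. Many of them begin with a terminal oligopyrimidine tract, a C followed by a run of pyrimidines, through which mTOR and LARP1 control their translation. An array measures mRNA abundance and not translation.

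The starts of 8 members are shown as examples of genes that carry such a tract and are named in the results. Other named members with a tract, such as Rpl13a, Rplp2 and Rpl39, are not shown. Rps27l has another annotated start without a tract. Each line holds 30 bases, 15 before the annotated start and 15 from it on, written 5′ to 3′ from RefSeq on GRCm38.p6. Capitals mark the tract, a C and at least 4 further pyrimidines beginning within 5 bases of the start.
Rps6, chr4:86857353-86857382, minus strand: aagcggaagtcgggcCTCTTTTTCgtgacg
Rps27, chr3:90213634-90213663, minus strand: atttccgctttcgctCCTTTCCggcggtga
Rps10, chr17:27635230-27635259, minus strand: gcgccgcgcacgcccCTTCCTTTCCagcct
Rpl14, chr9:120571502-120571531, plus strand: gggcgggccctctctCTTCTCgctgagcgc
Rpl12, chr2:32961697-32961726, plus strand: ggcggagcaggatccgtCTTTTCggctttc
Rpl38, chr11:114668565-114668594, plus strand: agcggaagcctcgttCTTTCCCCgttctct
Rps27l, chr9:66946071-66946100, plus strand: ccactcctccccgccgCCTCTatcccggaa
Rpl22l1, chr3:28805493-28805522, plus strand: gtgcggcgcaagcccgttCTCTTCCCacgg

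RefSeq promoters were matched for 43 of the 49 members. Such a start was annotated for 20 of them (46.5%), against 21.2% of 27025 genes in the table. In the 300 bases from 250 before to 50 after the start, on both strands, CCGGAA, the core of ETS family sites, was present in 28 of the 43 members (65.1%) and in 16.7% of all genes. GCCATNTT, a YY1 motif, was present in 7 members (16.3%) and in 6.96% of all genes. GGGCGG, the GC box, was present in 25 members (58.1%) and in 38.2% of all genes. TATAAA, the TATA box, was present in 6 members (14.0%) and in 15.7% of all genes. Motifs were counted separately, and 1 promoter can hold several, which may overlap. These are matches of letters and not measured binding.

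Signals are given after quantile normalisation unless called deposited, and differences are log2(signal + 16) values, progesterone minus TGFb1 alone, each with limma's standard error (n = 2 per group). This scale understates the change of dim genes. Correlations across genes were 0.985 within the progesterone group, 0.982 within the TGFb1 group and 0.937 to 0.961 between groups. Defining T cell markers were bright, with summed signals over 7 genes of 28882 and 29206 in the progesterone arrays, against 29208 and 31227 in the TGFb1 arrays, and none of the 7 passed the test. Of these 7, 3 lay above 0 and 4 below, the lowest being Cd4 at -0.34 (adjusted p = 0.0843 by limma). Proliferation markers summed to 4563 and 3468 in the progesterone arrays, against 16459 and 11202 in the TGFb1 arrays, and 6 of 7 fell. These were Mki67, Top2a, Birc5, Cdk1, Rrm2 and Mcm5. Myeloid markers summed to 1003 and 1175 in the progesterone arrays, against 496 and 276 in the TGFb1 arrays. Much of this came from Lyz2, with 685 and 771 in the progesterone arrays, against 173 and 54.1 in the TGFb1 arrays. Lyz2 was the only 1 of 7 tested genes called higher, and of the 7, 6 lay above 0 and 1 below. Xist, the RNA that coats the inactive X in female cells, had signals of 1432 and 1107 in the progesterone arrays, against 10.6 and 10.8 in the TGFb1 arrays. The Y-linked genes Eif2s3y, Kdm5d and Uty fell, and Eif2s3y had signals of 3.32 and 0.50 in the progesterone arrays, against 596 and 671 in the TGFb1 arrays. NK cell markers summed to 408 and 431 in the progesterone arrays, against 639.8 and 743 in the TGFb1 arrays, with Klrd1 lower of 2 tested genes. Mast cell markers summed to 1000 and 1282 in the progesterone arrays, against 1382 and 908 in the TGFb1 arrays, so the groups overlapped. Of the 4 mast cell genes Ms4a2 was called higher, and 3 lay above 0 and 1 below. The one below was Cpa3, at -0.33. Xist was high only in the progesterone arrays and the Y-linked genes only in the TGFb1 arrays, as in female and male cells. An effect of progesterone and one of the sex of the cells therefore cannot be told apart in these arrays. The part of the other differences in the values below was not tested. In bulk samples, fewer cells of a type and less RNA per cell cannot be told apart.

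Ribosomal protein probe sets were the brightest on the arrays. Of the 100 brightest, 34 were probe sets of members and another 50 listed a ribosomal protein symbol beside other symbols. The representative probe sets of 34 genes had mean signals between 8252 and 16807. Between 500 and 5000 lay 3 genes (Rpl22l1, Rpl37 and Rps27l), and 9 tested genes lay under 500. Of 12 genes with a mean deposited signal under 500, tested or not, 8 were also listed on a probe set with several symbols and a mean above 5000. The rule leaves such probe sets out.

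**Figure D1:**
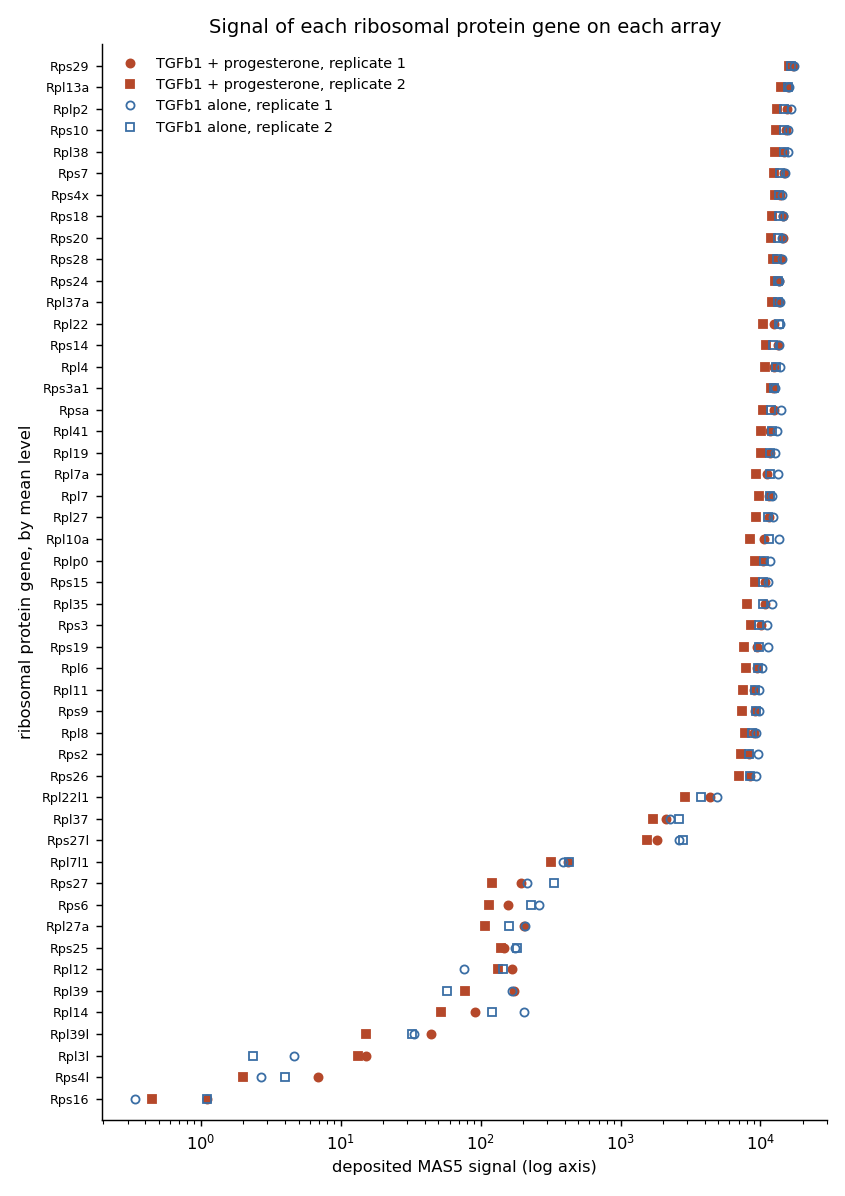
Deposited signal (log axis) of the 49 ribosomal protein genes, 1 row per gene, with filled symbols for the 2 TGFb1 plus progesterone arrays and open symbols for the 2 TGFb1 arrays. A band of 34 bright genes stands above 3 genes of middle level and the dim genes.

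With progesterone, none of the 46 ribosomal protein genes tested rose or fell by limma, where 8.16% of all genes passed (2.99% higher and 5.17% lower). At an unadjusted p under 0.05 there was 1 higher member, where 11.8% of all genes were higher, and 4 lower members, where 12.3% were lower. The members' median difference was 0.01, beside 0.02 for all genes. Their differences ran from -0.90 to 0.61, with 25 above 0, 20 below and 1 at 0. The groups did not overlap for 6 members that were higher with progesterone, against 29.8% of all genes, and for 10 that were lower, against 26.0%, or 55.8% of all genes in either direction.

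The 34 bright members lay close together, between -0.25 and 0.09, with standard errors of 0.052 to 0.078. The 95% interval of the difference lay within a 1.25-fold change either way for 33 of them and within 1.5-fold for all 34. With trimmed mean scaling 11 lay within 1.25-fold and all 34 within 1.5-fold, and quantile normalisation cannot show a shift shared by the top ranks. The SD of the differences over these genes was 0.069. For the 23 other genes at or above the level of the dimmest bright member it was 0.13, with a median of 0.02. None of those 23 passed by limma, and 5 had an unadjusted p under 0.05. Among the 9 dim members, 3 had an interval within 1.5-fold.

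**Figure D2:**
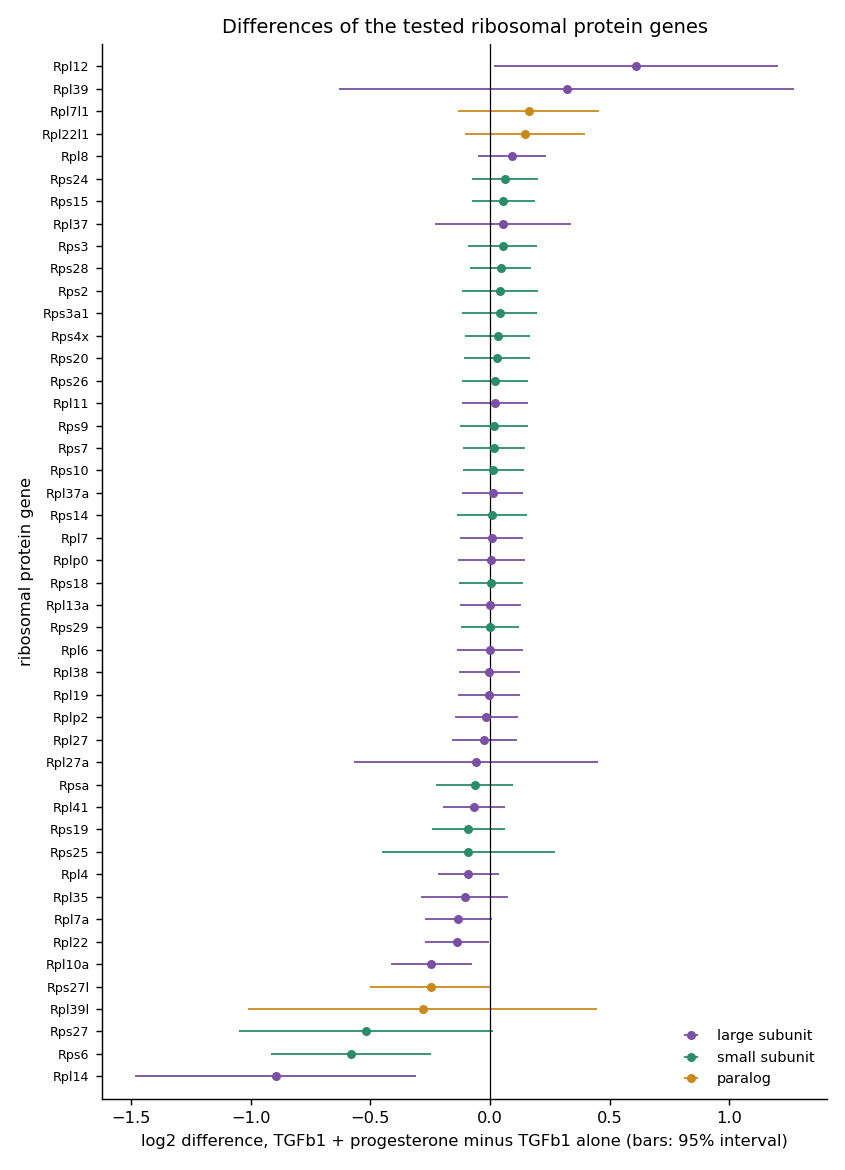
Log2 difference of each tested member (TGFb1 plus progesterone minus TGFb1 alone), with bars for the 95% interval and colours for the subunit or paralogs. The bright members lie between -0.25 and 0.09, and the values furthest from 0 belong to dim members with wide intervals.

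Of the 17 bright small subunit genes, 14 lay above 0 and 2 below, with a median of 0.02, but 16 lay above 0 with trimmed mean scaling and 0 as deposited or centred. Rps29, a zinc-binding protein of the small subunit, was the brightest probe set on every array, with deposited signals of 17188 and 15924 in the progesterone arrays, against 17494 and 16621 in the TGFb1 arrays. Quantile normalisation gives the same rank the same value, so its normalised signal was 16807 on all 4 arrays and its difference 0 by construction. Rps10 had signals of 14766 and 14561 in the progesterone arrays, against 14304 and 14766 in the TGFb1 arrays, a difference of 0.01 ± 0.05. Rps14, deleted in the human 5q- syndrome, had 12980.2 and 12219.6 in the progesterone arrays, against 12892 and 12150.1 in the TGFb1 arrays, a difference of 0.01 ± 0.06. In both genes the arrays of the groups overlapped.

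Rps3, which also acts in DNA repair and with NF-kB, had signals of 10006 and 10046 in the progesterone arrays, against 10006 and 9342 in the TGFb1 arrays. Its difference was 0.05 ± 0.06 (adjusted p = 0.653 by limma). A dim Rps3 probe set above the level filter had 195 and 165 in the progesterone arrays, against 293 and 233 in the TGFb1 arrays. Its difference was -0.51 (adjusted p = 0.135 by limma, probe sets tested one by one). Rpsa, also known as the laminin receptor, had 12181 and 11805 in the progesterone arrays, against 13249 and 11863 in the TGFb1 arrays, a difference of -0.06 ± 0.07 (adjusted p = 0.616). In the brightest probe sets of these genes of studied extra-ribosomal roles the groups overlapped as well.

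Of the 17 bright large subunit genes, 6 lay above 0 and 11 below, with a median of -0.01, and here too 16 lay above 0 with trimmed mean scaling and 0 as deposited or centred. Rplp0, a stalk protein and common reference gene, had signals of 10212 and 10715 in the progesterone arrays, against 10543 and 10299.9 in the TGFb1 arrays, a difference of 0.01 ± 0.06. Rplp2, its partner in the stalk that recruits elongation factors, had 14947 and 14947 in the progesterone arrays, against 15534 and 14685 in the TGFb1 arrays (-0.02 ± 0.06). Rpl11, which binds MDM2 when ribosome assembly is disturbed, had 8919 and 8958 in the progesterone arrays, against 8709 and 8919 in the TGFb1 arrays (0.02 ± 0.06). The groups overlapped in all 3.

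Rpl38, needed in mice for translation of certain Hox mRNAs, had signals of 14561 and 14169 in the progesterone arrays, against 14230.0 and 14561 in the TGFb1 arrays (0.00 ± 0.05). Rpl13a, part of a translational silencing complex in human cells, had 15185 and 15302 in the progesterone arrays, against 14947 and 15534 in the TGFb1 arrays (0.00 ± 0.05). In the brightest probe set of both genes the groups again overlapped. The 4 probe sets of Rpl13a ran from -0.33 to 0.03. Those at -0.33 and -0.29 were less bright and did not overlap between groups. Tested one by one they did not pass (adjusted p = 0.0556 and 0.13 by limma). Rpl8, with the highest difference of the bright members, was at 0.09 ± 0.06 (adjusted p = 0.4 by limma) and was singled out after its value was seen.

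Rpl10a, a protein of the L1 stalk singled out after its value was seen, had the lowest difference of the bright members. Its signals were 10299.9 and 9819 in the progesterone arrays, against 12625 and 11273 in the TGFb1 arrays, so the groups did not overlap. The difference was -0.25 ± 0.07 (adjusted p = 0.0866 by limma). Scaled by the trimmed mean it was -0.11, and as deposited -0.41. Rpl22, required in mice for development of alpha-beta T cells, had 12129 and 11863 in the progesterone arrays, against 12909 and 13502 in the TGFb1 arrays, also without overlap. Its difference of -0.14 ± 0.06 did not pass (adjusted p = 0.198 by limma), and its 3 probe sets ran from -0.19 to -0.08.

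**Figure D3:**
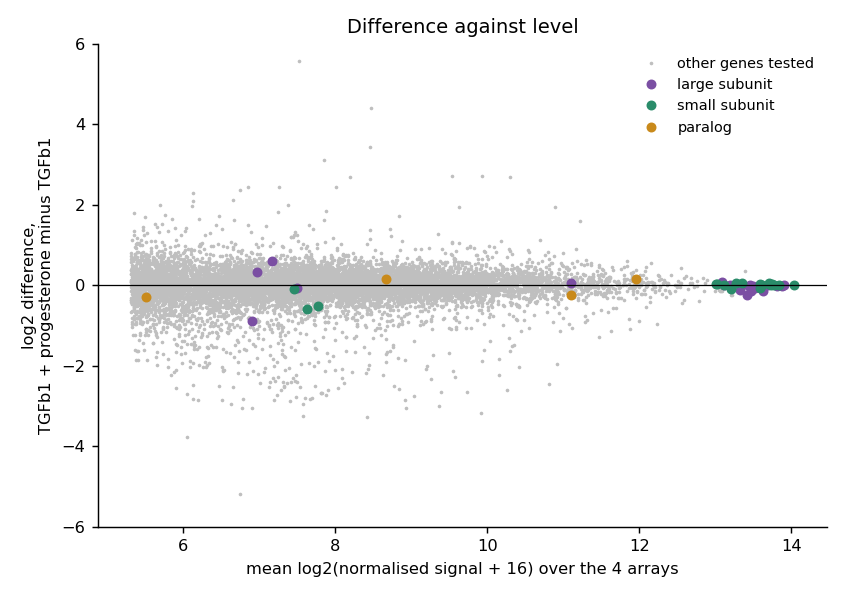
Log2 difference (TGFb1 plus progesterone minus TGFb1 alone) against the mean log2(normalised signal + 16) over the 4 arrays, with ribosomal protein genes in colour and the other genes tested in grey. Bright members gather near 0, and members further from 0 are dim.

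The differences furthest from 0 came from dim probe sets. Rps6, Rpl14, Rps27 and Rpl12 are each also listed, beside other symbols, on a probe set with a mean deposited signal of 13206, 8624, 12691 and 14051 in that order. The values below are therefore those of 1 dim probe set and cannot be read as the level of the gene. Rps6, the substrate of the S6 kinases, had signals of 153 and 139 in the progesterone arrays, against 236 and 216 in the TGFb1 arrays, with both progesterone arrays below both TGFb1 arrays. The difference was -0.58 ± 0.14 (adjusted p = 0.0509 by limma), just short of the threshold. It passed as lower in the values as deposited (-0.79, adjusted p = 0.021). The other Rps6 probe set was under the level filter.

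Rpl14, a large subunit protein, had 86.2 and 59 in the progesterone arrays, against 185 and 116 in the TGFb1 arrays, again without overlap. The difference was -0.90 ± 0.25 (adjusted p = 0.0764 by limma), and without TGFb1 replicate 2, which leaves 1 TGFb1 array, it was -1.17. It passed as lower in the values as deposited (-1.02, adjusted p = 0.00132). Rps27, a small subunit protein, had 191 and 146 in the progesterone arrays, against 195 and 309.7 in the TGFb1 arrays, and its nearest arrays of the groups lay close together. The difference was -0.52 ± 0.23 (adjusted p = 0.218), and without TGFb1 replicate 1, which leaves 1 TGFb1 array, it was -0.81. As deposited it passed as lower (-0.74, adjusted p = 0.0403).

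Rpl12, a protein at the base of the stalk, had the highest difference of all members. Its signals were 162 and 162 in the progesterone arrays, against 72.3 and 138 in the TGFb1 arrays, and the TGFb1 arrays lay further from each other than TGFb1 replicate 2 lay from the progesterone arrays. The difference was 0.61 ± 0.25 (adjusted p = 0.198 by limma). Without TGFb1 replicate 2, which leaves 1 TGFb1 array, the difference was 0.99.

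Of the 6 paralogs, 4 were tested and none passed by limma, nor had any an unadjusted p under 0.05. Rps27l, a target of p53, had signals of 1895 and 2099 in the progesterone arrays, against 2166 and 2593 in the TGFb1 arrays, without overlap. The difference was -0.25 ± 0.11 (adjusted p = 0.218), and its 3 probe sets ran from -0.35 to -0.24. After median centring of the arrays, where 34.6% of all genes were lower, it passed as lower (-0.80, adjusted p = 0.0014). Rpl22l1, which Rpl22 represses in mice, had 4492 and 3878 in the progesterone arrays, against 4104 and 3459.7 in the TGFb1 arrays, with overlapping groups (0.15 ± 0.11, adjusted p = 0.453). Its difference lay 0.28 above that of Rpl22 after quantile normalisation, but not under the other scalings. Rpl22l1 and Rpl22 were at -0.27 and -0.26 as deposited, at 0.03 and 0.04 with the trimmed mean, and at -0.40 and -0.39 centred.

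The remaining paralogs were dim. Rpl7l1, a factor of large subunit assembly, had 419 and 408 in the progesterone arrays, against 339.6 and 399 in the TGFb1 arrays (0.16 ± 0.13), and Rpl7 differed by 0.01 ± 0.06. As deposited they were at -0.15 and -0.16, and with the trimmed mean at 0.13 and 0.14, so this gap too was seen only after quantile normalisation among these scalings. Rpl39l, a paralog known from testis, had 38.6 and 15.4 in the progesterone arrays, against 34.7 and 34.0 in the TGFb1 arrays (-0.28 ± 0.31), and its progesterone arrays lay on either side of the TGFb1 arrays. Rpl3l, a paralog of striated muscle, had deposited signals of 15.1 and 13.4 in the progesterone arrays, against 4.61 and 2.35 in the TGFb1 arrays, and was not tested.

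Because Xist differed between the groups, the X-linked members are given separately. Rps4x, a small subunit gene, had signals of 13502 and 14304 in the progesterone arrays, against 13454 and 13724 in the TGFb1 arrays (0.03 ± 0.06, adjusted p = 0.781 by limma). Rpl39, of the large subunit, had 169 and 90.1 in the progesterone arrays, against 155 and 57.6 in the TGFb1 arrays (0.32 ± 0.41, adjusted p = 0.675). The groups overlapped in both, and the Rpl39 replicates lay further apart than the group means.

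The direction of the family as a whole depended on how arrays were scaled. Quantile normalisation assigns fixed values to ranks, and a shift shared by genes that fill the top ranks cannot appear in it. With each array divided by its trimmed mean, 37 of 46 members lay above 0, with a median of 0.11 beside 0.05 for all genes. As deposited, 2 lay above 0, with a median of -0.18 beside -0.22. Centred on each array's median, 2 lay above 0, with a median of -0.30 beside -0.34. Relative to all genes the members' median was therefore -0.02 after quantile normalisation, 0.06 with the trimmed mean, and 0.04 both as deposited and centred. No member passed with the trimmed mean.

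**Figure D4:**
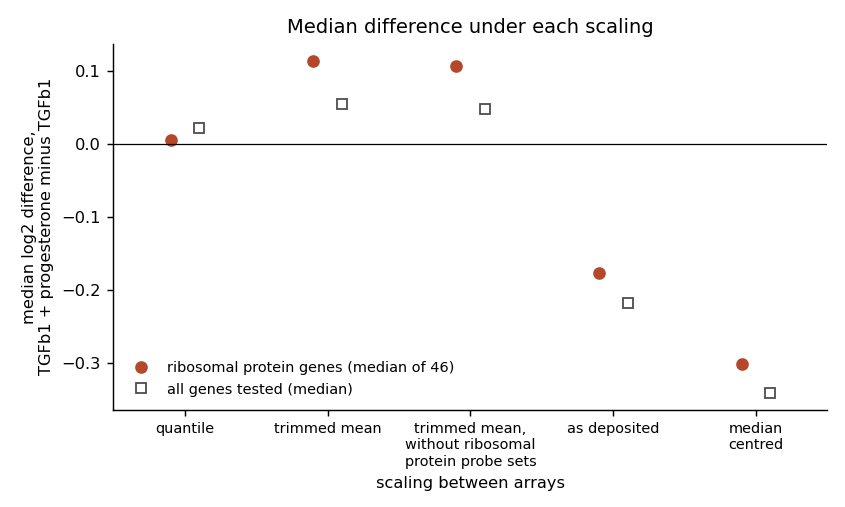
Median log2 difference (TGFb1 plus progesterone minus TGFb1 alone) of the 46 ribosomal protein genes (filled circles) and of all genes tested (open squares) under 5 scalings of the arrays. The members' median runs from -0.30 to 0.11 and follows the median of all genes.

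The share of an array's summed deposited signal that lay in member probe sets does not depend on scaling by a factor. It was 7.16% and 7.67% in the progesterone arrays, against 6.74% and 6.72% in the TGFb1 arrays. Both progesterone arrays lay above both TGFb1 arrays, with means of 7.42 ± 0.361% and 6.73 ± 0.0146% (SD, n = 2 each). An exact two-sided permutation test of the difference of 0.687 percentage points gave p = 0.33, the smallest that 2 against 2 arrays allow. With probe sets of several symbols added, the share was 15.7% and 16.8% in the progesterone arrays, against 14.7% and 14.6% in the TGFb1 arrays. A share also moves with the signal of all other genes. The trimmed mean was 137.8 and 107.7 in the progesterone arrays, against 154.5 and 145.4 in the TGFb1 arrays.

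**Figure D5:**
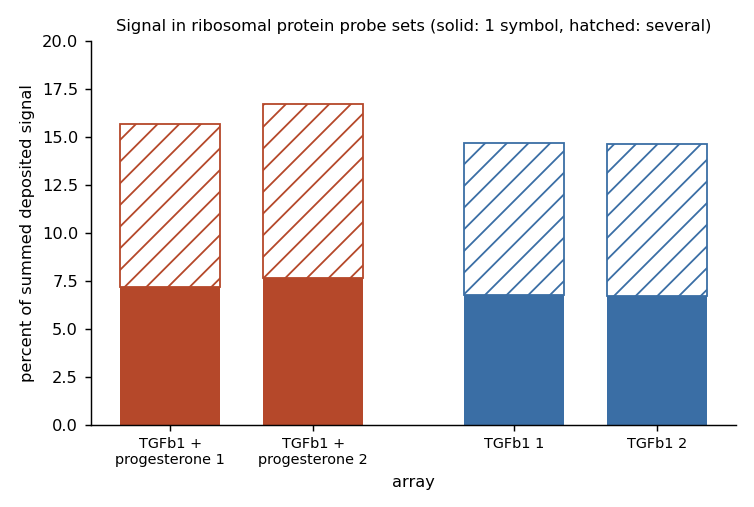
Percent of each array's summed deposited signal in ribosomal protein probe sets, 1 bar per array, solid for member probe sets and hatched for those that list several symbols. Member probe sets hold 7.16% and 7.67% in the TGFb1 plus progesterone arrays, against 6.74% and 6.72% in the TGFb1 arrays.

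More than 1 probe set was present for 24 of the 49 genes, with up to 6. Tested one by one, 92 member probe sets were above the level filter and 1 rose, where 5.99% of all probe sets passed. It belongs to Rpl27, a large subunit gene singled out after its value was seen, with a difference of 0.30 (adjusted p = 0.0215 by limma). The brightest Rpl27 probe set was at -0.02 and the remaining one at 0.18. For Rps24, a small subunit gene likewise singled out, the probe sets above the filter ran from 0.03 to 0.68, the highest being dim. Of the 102 probe sets above the filter that list a ribosomal protein symbol beside others, 7 rose, where 2.36% of all probe sets did. Another 2 fell, where 3.62% of all probe sets did. The differences of the 102 ran from -0.95 to 1.52 with a median of 0.02, and none is assigned to a gene here.

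Members were also described by their annotated start. A tract beginning more than 5 bases from that start was not counted, so a member without one here can still carry a tract nearby. The 20 tested members with a pyrimidine start ran from -0.90 to 0.61 (median 0.00), and the 21 without one from -0.28 to 0.16 (median 0.01). Of the bright members, 12 with such a start had a median difference of 0.00 (range -0.13 to 0.06), and 17 without one had a median of 0.01 (range -0.25 to 0.06).

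Other translation genes were counted beside the family, and their calls are to be read against the 8.16% of all genes that passed. Of the 152 genes in the 5 lists, 3.95% passed. Of 76 mitochondrial ribosomal protein genes 1 rose and 1 fell, with a median of -0.01. Mrpl28 had signals of 428 and 381 in the progesterone arrays, against 238 and 289 in the TGFb1 arrays (0.59 ± 0.14, adjusted p = 0.0459 by limma), but with _x_at and _s_at probe sets left out another probe set was at -0.14. Mrpl9 had 872 and 772 in the progesterone arrays, against 1089.6 and 1157 in the TGFb1 arrays (-0.45 ± 0.10, adjusted p = 0.0419). Both are large subunit proteins of the mitochondrial ribosome.

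Among 12 elongation factor and other genes of the pyrimidine tract class 1 fell, with a median of -0.06. It was Nap1l1, a histone chaperone, with 1359.8 and 1344 in the progesterone arrays, against 2896 and 2234 in the TGFb1 arrays (-0.90 ± 0.12, adjusted p = 0.00597 by limma). Btf3, a subunit of the nascent polypeptide-associated complex, was at -0.21 ± 0.07 (adjusted p = 0.13).

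Of 31 initiation factor genes 2 rose and none fell (6.45% called), with a median of 0.00. Eif5, which triggers GTP hydrolysis by eIF2, had 2234 and 2165 in the progesterone arrays, against 1480.3 and 1500.2 in the TGFb1 arrays (0.56 ± 0.08, adjusted p = 0.00726 by limma). Eif2s3x, the X-linked gene of an eIF2 subunit, had 1539 and 1485 in the progesterone arrays, against 1118 and 1099 in the TGFb1 arrays (0.44 ± 0.09, adjusted p = 0.0219), beside the differences in Xist and the Y-linked genes given above. As deposited, these were at 0.13 and 0.02 and did not pass.

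None of 19 tRNA synthetase genes passed by limma, 2 had an unadjusted p under 0.05, and the median was 0.03. Vars was at -0.64 ± 0.25 (adjusted p = 0.18) and Sars at -0.26 ± 0.10 (adjusted p = 0.161). Of 14 regulators of translation or of ribosome number 1 fell, with a median of 0.06. It was Myc, a driver of ribosome production, with 597 and 569 in the progesterone arrays, against 838 and 776 in the TGFb1 arrays (-0.46 ± 0.10, adjusted p = 0.0379 by limma). Ubtf, a factor of ribosomal RNA transcription, was at 0.52 ± 0.16 (adjusted p = 0.0936). Of the called genes in these lists, none passed without progesterone replicate 2, and Nap1l1 was the only one to pass without progesterone replicate 1. Mrpl28 and Myc were lost without TGFb1 replicate 1, and Mrpl9 without TGFb1 replicate 2.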

How the data were processed

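Expression arrays of 45101 probe sets were read from 4 samples, 2 per group. Deposited values are linear signal intensity from MAS5, per the submitters' processing notes, with the authors' scaling not given. Array trimmed means (2% off each end) differed 1.43 times, so signals were quantile normalised and used as log2(signal + 16). The 64 control probe sets and those under the median level were left out, and each gene took its brightest probe set with 1 symbol. Of the 45037 probe sets that were not controls, before the level filter, 34945 had 1 symbol, 932 several and 9160 none, and RefSeq (GRCm38.p6) matched 34741. limma 3.58.1 (R 4.3.3), with an intensity trend and no covariates, tested 10501 genes, adjusted by Benjamini-Hochberg at 0.05. Every adjusted p is from it. With 4 arrays and 2 residual degrees of freedom, their number limits the precision. The scripts were tested on simulated data.

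Members, lists and tests were chosen with earlier results of these data known. Genes were named by rule: the 4 highest and 4 lowest differences, the 5 brightest and 3 dimmest members tested, paralog pairs, X-linked members, members with roles studied outside the ribosome, and 2 genes per other list by moderated statistic. Other members whose differences are given are said to be singled out, and marker genes are named where called. Alternatives covered scaling, pseudocount, level filter, variance model, probe set choice, replicate block and each array left out.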

Additional observations from a re-analysis of the deposited data

How the results depend on the processing

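No ribosomal protein gene passed in the fit reported, with a pseudocount of 0, without a level filter, in the upper 25% by level, without an intensity trend, or with trimmed mean scaling. Lower calls numbered 3 of 46 as deposited (Rps6, Rpl14 and Rps27), where 7.57% of all genes were lower, and 10 of 46 after median centring, where 34.6% were. Rps6 was the 1 lower call with a pseudocount of 64, a robust trend, probe sets averaged per gene, and _x_at and _s_at probe sets dropped. In these fits 5.36% to 5.54% of all genes were lower. One by one, 1 probe set was higher, and with probe sets of several symbols, added after seeing the data, 8 were higher and 2 lower. Over all probe sets 2.36% were higher and 3.62% lower. The replicate block gave 1 higher (Rpl12) and 4 lower (Rps6, Rpl14, Rpl10a and Rps27l), with 1936 calls over all genes against 857. The arrays share only a number, and same-numbered arrays deviated together at r = 0.21. Leaving out 1 array, which leaves 1 array in a group, gave medians of -0.01 to 0.01. Single members moved more, and Rpl12, Rpl14 and Rps27 each moved further from 0 when 1 of the TGFb1 arrays was left out. The median was -0.178 as deposited, 0.114 with trimmed mean scaling, 0.107 with the ribosomal protein probe sets left out of that mean, and -0.302 centred. The share of signal differed by 0.0206 points after quantile normalisation, which gives all arrays one distribution. The other 5 lists together held 3 higher and 3 lower calls. These were 0 and 5 as deposited, 0 and 75 centred, 0 and 0 without a trend, and 10 and 10 with the replicate block. Lower calls were 1 without a level filter and 8 one by one, and higher calls 0 with probe sets averaged and 1 with _x_at and _s_at probe sets dropped. Leaving out 1 array gave 0 to 6 higher and 0 to 3 lower. Eif2s3x was at -0.0992 centred and Mrpl28 at -0.137 with _x_at and _s_at probe sets dropped. Calls over all genes ran from 235 without progesterone replicate 2 to 3779 centred, with 383 without progesterone replicate 1, 488 without a level filter, 464 without a trend and 1348 one by one. The cause of these changes was not tested. Of 389 values of named members, 19 newly passed and 47 changed sign without a call in either fit.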
